A study of Sus scrofa with 22 samples.

Results

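Cloned pig fetuses labelled abnormal were compared between embryonic day 35 and embryonic day 30, gene by gene. The members are the 2 libraries titled day35-abnormal and the 2 titled day30-abnormal, 4 of the 22 samples of a study of XIST and somatic cell nuclear transfer in the pig. Each is RNA of fetus body tissue, extracted with Trizol and sequenced as an RNA library, and all 4 are labelled male. The labels do not say what made a clone abnormal, which donor cells were used, or whether 2 libraries of a group came from 2 fetuses or litters, so p-values measure only the spread between these samples. Normal clones (3 libraries at each day, also labelled male) gave the same 5 days for comparison and share no library with the abnormal clones. Naturally fertilized (NF) fetuses, 2 libraries at each day, entered the shared fit, and the 8 embryo libraries of the series were not used. No genotype or treatment is given for any fetus group.

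In nuclear transfer the nucleus of a body cell is placed in an oocyte whose own nucleus was removed, and the oocyte has to return it to an embryonic state. Many clones are lost during gestation. At these ages a pig fetus normally has a beating heart and a spreading vessel network, its red cells pass from embryonic to later globins, and its muscle, kidney, liver and skin differentiate. Bulk tissue RNA measures cells and RNA together: fewer cells of a type and less RNA per cell cannot be told apart anywhere in these data.

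The day 35 libraries stood apart from each other before any test. Total expected counts, in mega-counts (M), were 3.46 and 3.57 M at day 30, and 4.28 M in replicate 1 but 0.589 M in replicate 2 at day 35. In CPM (counts scaled per mega-count of library size), 1 count was worth 2.70 in day 35 replicate 2 and 0.384 to 0.437 in the other abnormal libraries, and 3 counts, taken as the floor of detection, came to 8.09 CPM in that library. Of the 9911 genes tested, 7865 had a count in day 35 replicate 2 and 9452 to 9561 in the other abnormal libraries. Across genes, Spearman's rho was 0.960 between the day 30 libraries and 0.789 between the day 35 libraries. Day 35 replicate 1 was nearest to the day 30 abnormal clones (rho 0.907 with replicate 1). Day 35 replicate 2 was nearest to the NF fetuses (rho 0.889 to 0.908 over 4 libraries), against 0.783 to 0.829 with the 6 normal clones. Its highest rho, 0.908, was with day 30 NF replicate 1. These rho are descriptions over the same 9911 genes, and depth differs between the libraries.

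The male label was not matched by a Y-linked gene at day 35. EIF1AY, a translation initiation factor gene on Y and the tested member of the Y-linked list, was at 52.9 and 26.1 CPM at day 30 and 0 and 0 CPM at day 35, and at 36.6 ± 5.39 CPM at day 30 and 26.6 ± 5.48 CPM at day 35 in normal clones (SD, n = 3). The floor of 3 counts was 1.15 CPM in day 35 replicate 1 and 8.09 CPM in replicate 2, both under the lowest of the other values given. Day 30 NF replicate 1, the library with the highest rho to day 35 replicate 2 (0.908), was also at 0. Other loci of chromosome Y in RefSeq's Sscrofa11.1 table were low in the same libraries: LOC100624149 was at 623 and 345 CPM at day 30 and 1.92 and 0 CPM at day 35, and LOC100624590 at 418 and 179 CPM at day 30 and 1.53 and 0 CPM at day 35. LOC100624648 was not, at 407 and 391 CPM at day 30 and 523 and 272 CPM at day 35. The libraries labelled day 35 abnormal thus go against their male label. Whether they carry a wrong label was not tested, and every comparison of the days rests on the labels as given. Expression from Y and the day of sampling cannot be told apart in the abnormal clones. The 421 X-linked genes had a median log2 fold change of 0.08, beside 0.01 for autosomal genes, with 4 higher and 5 lower. XIST was not matched to a record and was not analysed here.

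In the abnormal clones 348 genes changed between the days (3.51% of those tested), 162 of them higher (1.63%) and 186 lower (1.88%) at day 35, in edgeR's quasi-likelihood test with Benjamini-Hochberg adjustment at 0.05. The genes that fell included endothelial, heart and macrophage genes. Those that rose included KRT5 of basal skin, TNMD of tendon and LOX, which crosslinks collagen. Both day 35 libraries lay on the same side of both day 30 libraries in 346 of the 348. The same held for 1585 genes upward (16.0%) and 2241 downward (22.6%) with or without a call. The count depended on the libraries: it was 2704 without day 35 replicate 1, 1107 without replicate 2, 139 without day 30 replicate 1 and 87 without day 30 replicate 2, and 49 genes were called in each of these 4 fits. Fitted on the 4 abnormal libraries alone, edgeR called 0 genes (459 of 8382 at an unadjusted p under 0.05, lowest adjusted p = 0.57), so the calls rest on the spread shared with the other fetus groups; DESeq2 on all 14 libraries called 857. With limma on log2(TPM + 1), where the median of all genes lay at -0.14 and not at 0.01, 182 genes were higher and 586 lower, so 23.7% of the calls were higher against 46.6%.

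**Figure D1:**
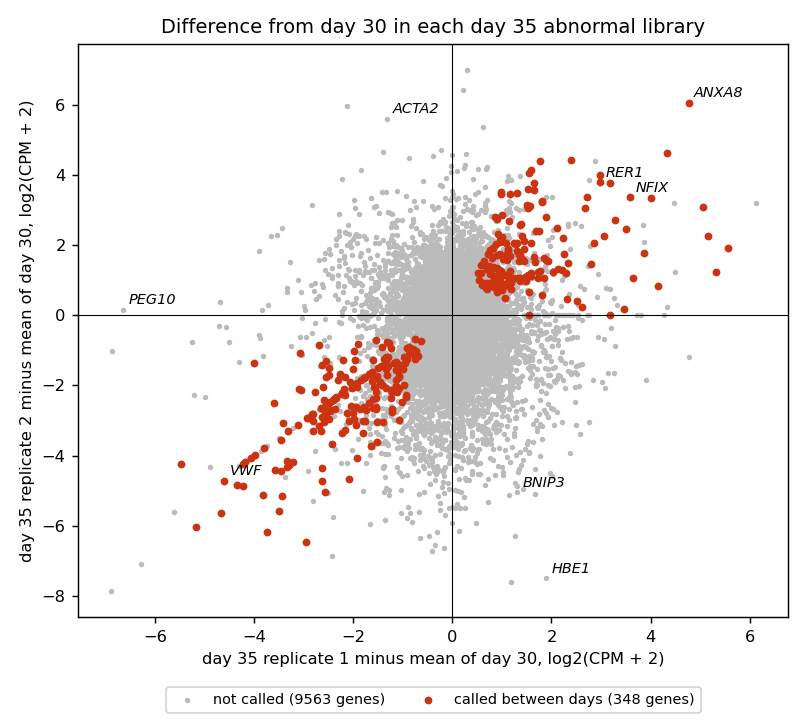
Each point is 1 of the 9911 genes, placed by its difference from the mean of the 2 day 30 abnormal libraries in day 35 replicate 1 (x axis) and replicate 2 (y axis), both as log2(CPM + 2). Of the 348 called genes 346 lie in the lower left or upper right, while ACTA2, PEG10, BNIP3 and HBE1 lie where the 2 libraries part.

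Several genes of the vessel lining fell. Of 12 endothelial genes tested, 5 fell and 0 rose, beside 1.88% lower over all genes. Their median log2 fold change was -3.04, beside 0.01 over all genes. In 9 both day 35 libraries lay below both day 30 libraries, beside 22.6% of all genes. Their summed level was 1148 and 1607 CPM at day 30 and 359 and 369.6 CPM at day 35, against 803 to 833 CPM at day 30 and 953 to 1054 CPM at day 35 in normal clones.

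VWF (von Willebrand factor, Sscrofa11.1 chr5:64516627-64655938), the clotting glycoprotein stored by endothelial cells, was at 111 and 133 CPM at day 30 and 3.07 and 2.7 CPM at day 35 (log2 fold change -5.33 ± 0.30 SE, adjusted p = 1.6e-05). The day 35 libraries agreed closely and were far below both day 30 libraries. PECAM1, the adhesion receptor at endothelial junctions (chr12:14667643-14723296), was at 265 and 366 CPM at day 30 and 29.2 and 13.5 CPM at day 35 (log2 fold change -3.69 ± 0.60 SE, adjusted p = 0.011). CLDN5, the tight-junction protein of endothelium, was at 75.1 and 119 CPM at day 30 and 6.52 and 0 CPM at day 35 (log2 fold change -4.18 ± 0.67 SE, adjusted p = 0.0099). ESAM, another junction molecule, was at 34.1 and 83 CPM at day 30 and 3.07 and 2.7 CPM at day 35 (log2 fold change -4.27 ± 0.68 SE, adjusted p = 0.0097). TEK, the angiopoietin receptor, was at 45.9 and 55.6 CPM at day 30 and 6.52 and 0 CPM at day 35 (log2 fold change -3.30 ± 0.47 SE, adjusted p = 0.0075). In each of these the groups did not overlap, and day 35 replicate 2 held at most 5 counts. The calls held without each of the 4 libraries in turn, except that of PECAM1, which was lost without day 30 replicate 2 (adjusted p = 0.05).

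Not all endothelial genes moved. ENG, a co-receptor for TGF-beta ligands, was at 121 and 105 CPM at day 30 and 114 and 165 CPM at day 35, and ERG, an endothelial and cartilage transcription factor, at 37.1 and 46.2 CPM at day 30 and 64.5 and 40.5 CPM at day 35, and neither was called. The VEGF receptor gene KDR was at 266 and 395 CPM at day 30 and 90.9 and 8.09 CPM at day 35 (adjusted p = 0.098). FLT1, the other VEGF receptor, was at 75.1 and 145 CPM at day 30 and 6.14 and 129 CPM at day 35, so that day 35 replicate 2 lay between the day 30 libraries.

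Further endothelial genes stood among the genes undetected at day 35. Of the 186 genes that fell, 31 had no count in either day 35 library and 68 had none in replicate 2, where a gene under 8.09 CPM was at or below the floor. Their folds are given against 3 counts over the day 35 group (1.01 CPM). PTPRB, the endothelial tyrosine phosphatase, was at 29.3 and 40.6 CPM at day 30 and at least 34.7-fold lower at day 35 (adjusted p = 0.0018). SOX7, a transcription factor of early vessels, was at 24.9 and 39.3 CPM at day 30 and at least 31.9-fold lower. ARHGEF15, an endothelial guanine nucleotide exchange factor, was at 22.7 and 29.1 CPM and at least 25.7-fold lower. GJA4, a connexin of arterial endothelium, was at 6.12 and 22.7 CPM and at least 14.3-fold lower. The last 3 calls were lost without day 30 replicate 2 (adjusted p = 0.061, 0.084 and 0.092) and without day 35 replicate 1 (0.054, 0.082 and 0.13), and that of ARHGEF15 also without day 30 replicate 1 (0.064); PTPRB kept its call in all 4.

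Among the 49 genes called in every one of those 4 fits were more genes known from endothelium, named here after their values were seen. CD93 was at 236 and 393 CPM at day 30 and 6.52 and 2.7 CPM at day 35 (log2 fold change -5.75 ± 0.55 SE, adjusted p = 5.9e-04). NOTCH4 was at 73.8 and 103 CPM at day 30 and 0 and 2.7 CPM at day 35 (log2 fold change -7.86 ± 0.90 SE, adjusted p = 0.0016). CD34, also a blood progenitor marker, was at 57.7 and 95.4 CPM at day 30 and 16.5 and 10.8 CPM at day 35 (log2 fold change -2.35 ± 0.34 SE, adjusted p = 0.0075). RASIP1, which vessels need to form a lumen, was at 112 and 149 CPM at day 30 and 32.6 and 29.7 CPM at day 35 (log2 fold change -2.04 ± 0.27 SE, adjusted p = 0.0048). Both day 35 libraries were below both day 30 libraries in each of these, a separation between days that 346 of the 348 called genes share.

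**Figure D2:**
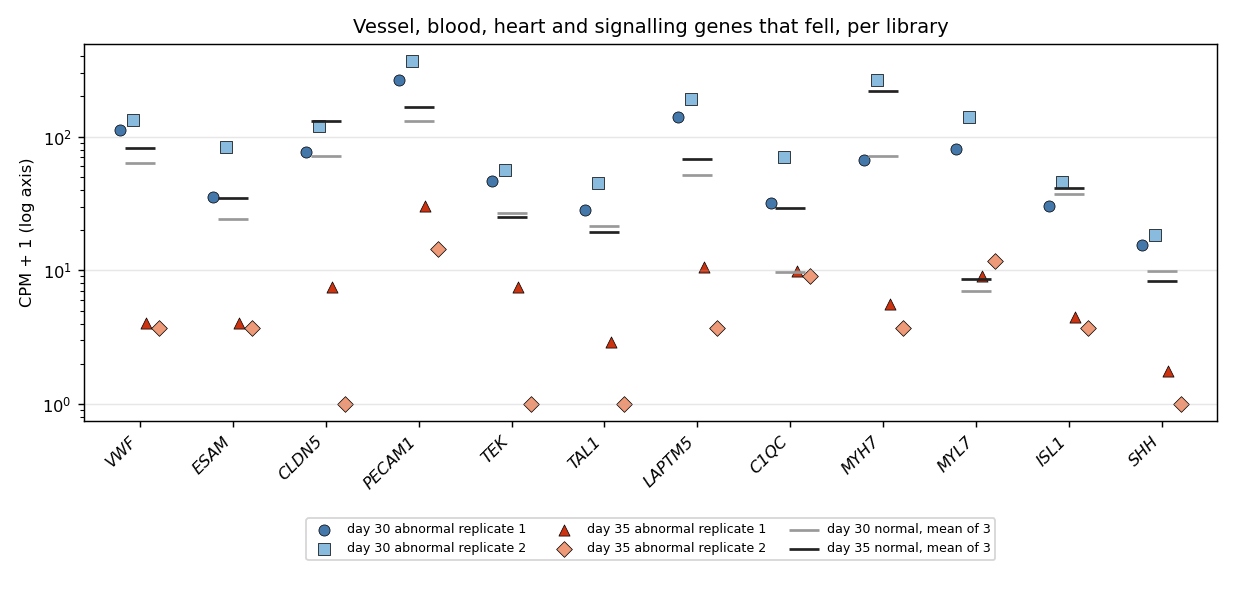
Level of 12 genes that fell, as CPM + 1 on a log axis, in each of the 4 abnormal libraries (symbols) and as the mean of 3 normal clones at each day (bars). Both day 35 abnormal libraries sit below both day 30 abnormal libraries in all 12, for VWF at 3.07 and 2.70 CPM against 111 and 133 CPM.

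Few blood cell genes passed the test. Of 21 leukocyte genes tested, 3 fell and none rose (median log2 fold change -1.56), beside 1.88% lower over all genes. In 11 both day 35 libraries lay below both day 30 libraries, beside 22.6% of all genes. LAPTM5, a lysosomal membrane protein of blood cells, was at 138 and 189 CPM at day 30 and 9.59 and 2.7 CPM at day 35 (log2 fold change -4.33 ± 0.46 SE, adjusted p = 0.0011). C1QC, a chain of the complement component made by macrophages, was at 31 and 68.8 CPM at day 30 and 8.82 and 8.09 CPM at day 35 (log2 fold change -2.53 ± 0.46 SE, adjusted p = 0.016), and its partner C1QA at 17.5 and 41.9 CPM at day 30 and 7.67 and 2.7 CPM at day 35 (log2 fold change -2.21 ± 0.51 SE, adjusted p = 0.042). The pan-leukocyte gene PTPRC was at 0 in both day 35 libraries and at 2.18 and 2.99 CPM at day 30, levels already under the floor of replicate 2. The macrophage growth factor receptor CSF1R overlapped between the days, at 4.81 and 9.84 CPM at day 30 and 2.3 and 8.09 CPM at day 35. The calls of C1QC and C1QA were lost without day 30 replicate 2 (adjusted p = 0.067 and 0.2), while LAPTM5 kept its call in all 4 fits.

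Of 18 erythroid genes, 2 fell and none rose (median -1.0), beside 1.88% lower over all genes. In all, 11 of the 18 overlapped between the days, a share near that over all genes (6085 of 9911). The summed level of the list was 799 and 2029 CPM at day 30 and 2795 and 121 CPM at day 35. TAL1, a transcription factor of blood and vessel progenitors, was at 27.1 and 43.6 CPM at day 30 and 1.92 and 0 CPM at day 35 (log2 fold change -4.44 ± 0.66 SE, adjusted p = 0.0075). SPTB, the erythrocyte spectrin beta chain, which muscle also makes, was at 24.9 and 19.7 CPM at day 30 and 2.3 and 5.4 CPM at day 35 (log2 fold change -2.97 ± 0.62 SE, adjusted p = 0.028). It was not called without day 30 replicate 1 (adjusted p = 0.091), day 30 replicate 2 (0.065) or day 35 replicate 1 (0.15). The globins followed neither gene. HBE1, embryonic beta-like globin, was at 193 and 669 CPM at day 30 and 1341 and 0 CPM at day 35, and HBZ, embryonic alpha-like globin, at 182 and 815 CPM at day 30 and 872 and 0 CPM at day 35, so that day 35 replicate 1 was above both day 30 libraries while replicate 2 had no count. The later globin HBB was at 11.4 and 31.2 CPM at day 30 and 19.6 and 0 CPM at day 35. In normal clones HBE1 went from 1267 ± 506 CPM at day 30 to 16.1 ± 11.7 CPM at day 35 (SD, n = 3), and HBB from 225 ± 259.8 CPM to 2086 ± 737 CPM. Neither globin's day change was called different from that in normal clones (HBE1 adjusted p = 0.06, HBB 0.16).

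Most heart genes lay lower at day 35, with few calls, and muscle genes parted between the 2 day 35 libraries. Of 14 cardiac genes tested, 2 fell and none rose (median -2.28), beside 1.88% lower over all genes. In both day 35 libraries 12 were below both day 30 libraries, beside 22.6% of all genes. MYH7, the slow and cardiac myosin heavy chain, was at 66 and 265 CPM at day 30 and 4.6 and 2.7 CPM at day 35 (log2 fold change -5.27 ± 0.90 SE, adjusted p = 0.012). MYL7, the atrial regulatory light chain, was at 80.4 and 138 CPM at day 30 and 8.06 and 10.8 CPM at day 35 (log2 fold change -3.63 ± 0.52 SE, adjusted p = 0.0075). Both kept their calls in all 4 fits. In normal clones of day 30 and day 35, MYL7 was at 6.02 ± 2.22 and 7.68 ± 3.11 CPM (SD, n = 3). For MYL7 the day 30 abnormal libraries were thus the high ones. MYH7 was not low in normal clones, at 70.4 ± 17.2 and 217 ± 123 CPM. The early heart factors GATA4, at 67.7 and 105 CPM at day 30 and 17.6 and 8.09 CPM at day 35, and HAND1, at 49.4 and 37.2 CPM at day 30 and 15.7 and 2.7 CPM at day 35, did not pass (adjusted p = 0.098 and 0.14). ACTC1, cardiac actin, which embryonic skeletal muscle also makes, was at 154 and 467 CPM at day 30 and 23 and 1529.5 CPM at day 35, the highest level of the 4 in day 35 replicate 2. HCN4, the pacemaker channel, named after its values were seen, was at 29.3 and 48.7 CPM at day 30 and 4.6 and 5.4 CPM at day 35 (log2 fold change -3.02 ± 0.39 SE, adjusted p = 0.0035). Normal clones had HCN4 at 10.8 ± 0.452 and 18.3 ± 1.83 CPM at day 30 and day 35, means below both day 30 abnormal libraries.

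Of 20 skeletal muscle genes, 2 fell and none rose (median -1.21), beside 1.88% lower over all genes. ACTA1, skeletal alpha-actin, was at 44.6 and 67.6 CPM at day 30 and 2.69 and 8.09 CPM at day 35 (log2 fold change -3.96 ± 0.82 SE, adjusted p = 0.026). MYBPC1, a slow-fibre myosin-binding protein, was at 7.43 and 27.4 CPM at day 30 and 0.767 and 0 CPM at day 35 (log2 fold change -4.66 ± 1.02 SE, adjusted p = 0.034). Both calls were lost without day 30 replicate 2 (adjusted p = 0.093 and 0.12) and without day 35 replicate 1 (0.14 and 0.14). Day 35 replicate 1 was below both day 30 libraries in 17 of the 20 genes, beside 40.2% of all genes. Replicate 2 was above both in 9, beside 37.5% of all genes. DES, the muscle intermediate filament, shows this at 104 and 229 CPM at day 30 and 52.9 and 515 CPM at day 35, and MYF5, a factor of early muscle precursors, at 3.5 and 4.28 CPM at day 30 and 0.384 and 43.2 CPM at day 35.

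Single kidney and liver genes fell, and 1 kidney gene rose. Of 8 kidney genes tested, 3 fell and 1 rose, beside 1.88% lower and 1.63% higher over all genes. PAX2, the transcription factor of nephric epithelium, was at 6.55 and 21 CPM at day 30, undetected at day 35 and at least 13.6-fold lower (adjusted p = 0.021). GDNF, the ligand that draws out the ureteric bud, was at 14 and 13.7 CPM at day 30 and 1.53 and 2.7 CPM at day 35 (log2 fold change -2.97 ± 0.50 SE, adjusted p = 0.012). PODXL, a podocyte sialomucin also on endothelium, was at 319.8 and 381 CPM at day 30 and 120.1 and 40.5 CPM at day 35 (log2 fold change -2.0 ± 0.40 SE, adjusted p = 0.023). SIX2, a factor of nephron progenitors and of head and body mesenchyme, rose, at 16.6 and 12.8 CPM at day 30 and 186 and 89 CPM at day 35 (log2 fold change 3.28 ± 0.37 SE, adjusted p = 0.0015), with both day 35 libraries far above both day 30 libraries. SIX2 kept its call in all 4 fits. PAX2 lost it without day 30 replicate 2 (adjusted p = 0.066) and day 35 replicate 1 (0.093), GDNF without day 35 replicate 1 (0.075), and PODXL without day 30 replicate 1 (0.068) and replicate 2 (0.11).

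Of 13 liver genes, 2 fell, beside 1.88% of all genes. HNF4A, the hepatocyte transcription factor, was at 3.06 and 5.56 CPM at day 30 and undetected at day 35, at least 4.28-fold lower (adjusted p = 0.044). Both day 30 levels of HNF4A were under the 8.09 CPM floor of day 35 replicate 2. The lack of a count there says little, and the fold rests mainly on day 35 replicate 1. APOA1, the main apolipoprotein of HDL, was at 15.3 and 106 CPM at day 30 and 3.07 and 8.09 CPM at day 35 (log2 fold change -3.95 ± 0.89 SE, adjusted p = 0.038). Neither call held without day 30 replicate 2 (adjusted p = 0.13 and 0.082) or day 35 replicate 1 (0.17 and 0.17), nor that of HNF4A without day 30 replicate 1 (0.074). Secreted liver proteins were high in 1 library: AFP, alpha-fetoprotein, was at 0.874 and 455 CPM at day 30 and 1.53 and 0 CPM at day 35, and AHSG, fetuin, at 0.437 and 975 CPM at day 30 and 2.69 and 0 CPM at day 35. Day 30 replicate 2 alone carried them, and the summed liver level was 65.5 and 2057 CPM at day 30 and 58.3 and 105 CPM at day 35.

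Single patterning and neural genes fell. SHH, the secreted signal of notochord, floor plate and limb bud, was at 14.4 and 17.5 CPM at day 30 and 0.767 and 0 CPM at day 35 (log2 fold change -4.57 ± 0.74 SE, adjusted p = 0.0099), and was the 1 called of 9 limb and tail bud regulators. ISL1, a factor of motor neurons and heart progenitors, was at 29.3 and 44.5 CPM at day 30 and 3.45 and 2.7 CPM at day 35 (log2 fold change -3.47 ± 0.51 SE, adjusted p = 0.0075). NEFL, the light neurofilament, was at 135 and 167 CPM at day 30 and 27.2 and 27 CPM at day 35 (log2 fold change -2.48 ± 0.55 SE, adjusted p = 0.035), and its call was lost without day 30 replicate 1 (adjusted p = 0.079), day 30 replicate 2 (0.12) and day 35 replicate 1 (0.081). SHH and ISL1 kept theirs in all 4 fits. ISL1 and NEFL were the 2 called of 18 neural genes, whose median was -0.74. Over all genes 3.51% were called.

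HOXB1, a hindbrain HOX gene, was at 9.17 and 15.4 CPM at day 30 and 0.384 and 0 CPM at day 35 (log2 fold change -5.12 ± 1.02 SE, adjusted p = 0.045), and HOXD9 at 49.8 and 48.7 CPM at day 30 and 22.3 and 13.5 CPM at day 35 (log2 fold change -1.32 ± 0.31 SE, adjusted p = 0.042). These were the single calls among 12 anterior and 14 central and posterior HOX genes, beside 3.51% called over all genes. HOXB1 was not called in any of the 4 fits that left out 1 library (adjusted p from 0.052 without day 35 replicate 2 to 0.16 without day 30 replicate 2, with 0.11 without day 30 replicate 1 and 0.075 without day 35 replicate 1), and HOXD9 not without day 30 replicate 1 (0.13) or replicate 2 (0.12).

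Other genes at 0 in both day 35 libraries belong to the dividing cell or to no list. They do not stand for the cell cycle list, which had no call among 19 genes (median -0.05). Of those, 15 were above both day 30 libraries in day 35 replicate 2, and all 19 were below both in replicate 1. DTL, which marks replication-licensing proteins for destruction, was at 33.6 and 26.1 CPM at day 30 and at least 29.6-fold lower at day 35 (adjusted p = 2.3e-04). KIF18A, a mitotic kinesin, was at 15.7 and 6.84 CPM and at least 11.2-fold lower (adjusted p = 0.0075). PIDD1, a p53-induced death-domain protein, was at 7.43 and 12.4 CPM and at least 9.84-fold lower (adjusted p = 0.0097). FUT1, a fucosyltransferase, was at 10.5 and 16.2 CPM and at least 13.3-fold lower (adjusted p = 0.0018). These 4 kept their calls in all 4 fits. ESPL1, separase, was at 26.7 and 47 CPM and at least 36.6-fold lower (adjusted p = 0.045), and it was not called without day 30 replicate 1 (0.089), day 30 replicate 2 (0.13) or day 35 replicate 1 (0.18). PRND, PLCH1, CXHXorf36, PLRG1 and CALML4 were likewise undetected, from at least 9.23-fold lower for CALML4 to at least 19.2-fold lower for PRND, with adjusted p between 0.019 and 0.043. Each of these 5 lost its call without day 35 replicate 1 (adjusted p from 0.065 to 0.095), PLCH1, PLRG1 and CALML4 without day 30 replicate 1 (0.05 to 0.082), and all but PLRG1 without day 30 replicate 2 (0.061 to 0.13).

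Single genes known from skin, tendon and connective tissue matrix rose. Of the 162 genes that rose, 149 had a day 30 NF mean above both day 30 abnormal libraries. The share of all genes with that order was not computed. Genes called higher tend to have low day 30 abnormal values, which favours this order, so the count alone shows no approach to NF levels. Day 30 NF means were 252 ± 59.7 CPM for KRT5, 114 ± 37.0 CPM for TNMD and 302 ± 5.19 CPM for ASPN (SD, n = 2). ANXA8, a calcium-dependent membrane-binding protein of stratified epithelium (chr14:88319209-88340716), was at 0 and 4.7 CPM at day 30 and 97.8 and 243 CPM at day 35 (log2 fold change 6.09 ± 0.81 SE, adjusted p = 0.0043). KRT5, the keratin of basal skin cells, was at 5.24 and 1.28 CPM at day 30 and 171 and 21.6 CPM at day 35 (log2 fold change 5.05 ± 1.02 SE, adjusted p = 0.023), the 1 called of 15 epithelial genes, of which 13 lay below both day 30 libraries in day 35 replicate 2. DSG3, a desmosomal cadherin of the same layer, had no count at day 30 and was at 77.9 and 2.7 CPM at day 35, at least 62.1-fold higher against 3 counts over the day 30 group (adjusted p = 0.012). Its level in day 35 replicate 2 was 1 count. KRT5 and DSG3 were carried by day 35 replicate 1: without it their adjusted p was 0.31 and 0.077, and they were also not called without day 30 replicate 1 (0.095 and 0.069) or replicate 2 (0.16 and 0.076). ANXA8 was called in all 4 fits.

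TNMD, the tendon membrane protein tenomodulin (chrX:82269323-82292083), was at 0.874 and 1.28 CPM at day 30 and 25.7 and 40.5 CPM at day 35 (log2 fold change 4.78 ± 0.49 SE, adjusted p = 8.7e-04). ASPN, a small leucine-rich matrix proteoglycan, was at 9.61 and 1.71 CPM at day 30 and 130.1 and 162 CPM at day 35 (log2 fold change 4.67 ± 0.68 SE, adjusted p = 0.0075). Both were at similar levels in the 2 day 35 libraries and kept their calls in all 4 fits. Of 14 fibroblast matrix genes, 3 rose and none fell (median 0.61), beside 1.63% higher over all genes. LOX, which crosslinks collagen, was at 25.8 and 34.6 CPM at day 30 and 97.8 and 375 CPM at day 35 (log2 fold change 2.89 ± 0.60 SE, adjusted p = 0.026). TWIST2, a factor of dermal mesenchyme, was at 19.2 and 16.7 CPM at day 30 and 49.9 and 119 CPM at day 35 (log2 fold change 2.10 ± 0.48 SE, adjusted p = 0.038), and SPARC, a collagen-binding glycoprotein, at 1269 and 1114 CPM at day 30 and 1806 and 2172 CPM at day 35 (log2 fold change 0.74 ± 0.18 SE, adjusted p = 0.047). LOX, TWIST2 and SPARC were not called without day 30 replicate 1 (adjusted p = 0.16, 0.15 and 0.15) or replicate 2 (0.12, 0.17 and 0.25), nor TWIST2 without day 35 replicate 2 (0.073). EGFL6 and SRPX2, secreted proteins, rose as well: EGFL6 was at 2.62 and 1.71 CPM at day 30 and 43.7 and 2.7 CPM at day 35 (log2 fold change 3.81 ± 0.70 SE, adjusted p = 0.017) and SRPX2 at 2.18 and 0.428 CPM at day 30 and 7.29 and 51.3 CPM at day 35 (log2 fold change 4.01 ± 0.96 SE, adjusted p = 0.046). Without day 35 replicate 1 the adjusted p of EGFL6 was 0.93, and both were lost without day 30 replicate 1 (0.091 and 0.11) and replicate 2 (0.12 and 0.2).

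Among regulators and membrane proteins, NFIX, a nuclear factor I transcription factor of fetal tissue (chr2:65954808-66056591), had the smallest adjusted p of the genes named as higher, at 9.61 and 5.99 CPM at day 30 and 113 and 97.1 CPM at day 35 (log2 fold change 3.77 ± 0.29 SE, adjusted p = 1.9e-04). RER1, a Golgi receptor that returns proteins to the endoplasmic reticulum (chr6:64301139-64311526), was at 12.2 and 12.4 CPM at day 30 and 111 and 197 CPM at day 35 (log2 fold change 3.61 ± 0.35 SE, adjusted p = 5.9e-04). Every other fetus group kept RER1 low: normal clones had 7.02 ± 1.45 CPM at day 30 and 9.36 ± 2.16 CPM at day 35 (SD, n = 3), and NF fetuses 10.6 ± 0.496 CPM and 10.3 ± 0.945 CPM (SD, n = 2). NFIX and RER1 were called in all 4 fits. CYP1A1, a xenobiotic-metabolizing oxidase, was at 1.75 and 4.7 CPM at day 30 and 164 and 40.5 CPM at day 35 (log2 fold change 5.05 ± 0.77 SE, adjusted p = 0.0087), and was not called without day 30 replicate 1 (adjusted p = 0.064). ABCB1, the drug efflux pump, was at 3.93 and 2.14 CPM at day 30 and 77.9 and 48.6 CPM at day 35 (log2 fold change 4.41 ± 0.72 SE, adjusted p = 0.0099), and LGALS3, galectin-3, at 6.99 and 5.99 CPM at day 30 and 64.5 and 135 CPM at day 35 (log2 fold change 3.85 ± 0.60 SE, adjusted p = 0.0094). BAG2, a chaperone cofactor, was at 0.437 and 0 CPM at day 30 and 9.59 and 45.9 CPM at day 35 (log2 fold change 6.62 ± 1.13 SE, adjusted p = 0.012), and BEND6 at 0 and 0.855 CPM at day 30 and 6.14 and 48.6 CPM at day 35 (log2 fold change 5.61 ± 1.27 SE, adjusted p = 0.038). These 4 were not called without day 30 replicate 1 (0.053, 0.052, 0.052 and 0.18) or replicate 2 (0.085, 0.066, 0.085 and 0.11). FZD9, a WNT receptor, had no count at day 30 and was at 6.14 and 2.7 CPM at day 35 (adjusted p = 0.023), 1 count in replicate 2. FZD9 kept its call only without day 35 replicate 2 (adjusted p = 0.1 and 0.11 without day 30 replicates 1 and 2, 0.13 without day 35 replicate 1).

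**Figure D3:**
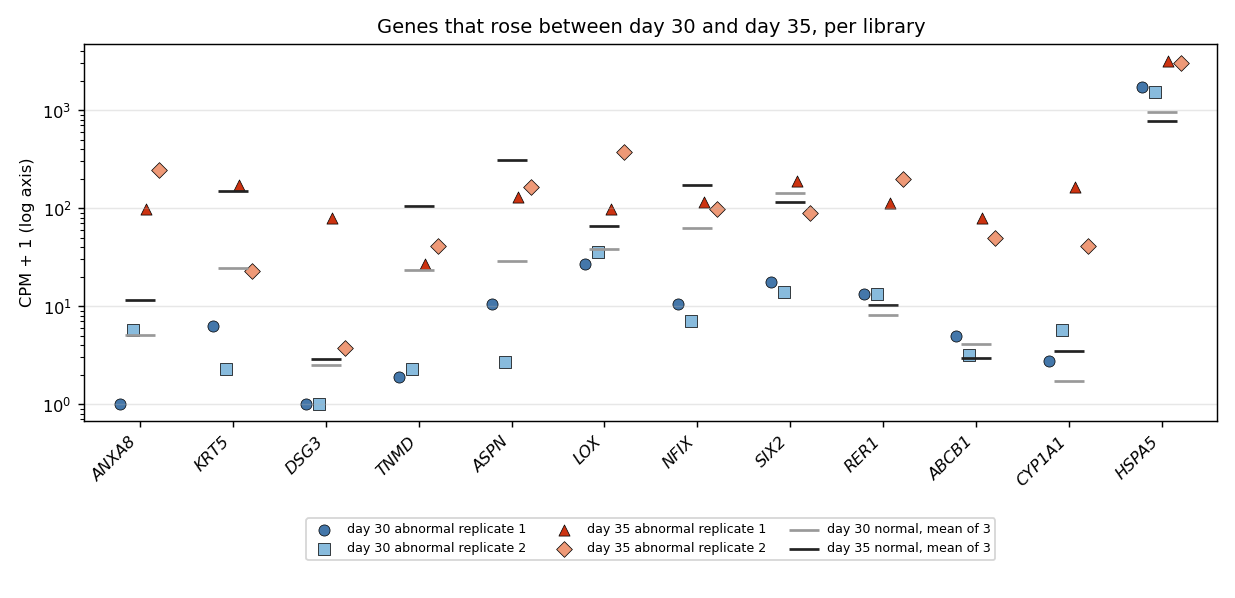
Level of 12 genes that rose, as CPM + 1 on a log axis, in each abnormal library (symbols) and as the mean of 3 normal clones at each day (bars). RER1 sits at 12.2 and 12.4 CPM at day 30 and 111 and 197 CPM at day 35, while the DSG3 level of 2.70 CPM in day 35 replicate 2 is 1 count.

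Stress and housekeeping lists gave at most 2 calls each, where 3.51% of all genes were called. HSPA5, the main chaperone of the endoplasmic reticulum, was at 1701 and 1515 CPM at day 30 and 3153 and 3016 CPM at day 35 (log2 fold change 0.94 ± 0.20 SE, adjusted p = 0.032). HSP70.2, a cytosolic chaperone of the HSP70 family, whose reads could be split with its close copies and is uncertain for that reason, was at 1209 and 981 CPM at day 30 and 371 and 175 CPM at day 35 (log2 fold change -1.97 ± 0.33 SE, adjusted p = 0.011). They moved in opposite directions and were the 2 called of 24 heat shock and unfolded protein genes. ALDH1L2, the mitochondrial folate dehydrogenase, was at 31 and 30.8 CPM at day 30 and 143 and 80.9 CPM at day 35 (log2 fold change 1.91 ± 0.37 SE, adjusted p = 0.021), the 1 called of 17 amino acid and integrated stress response genes. That list had a median of 1.01, with day 35 replicate 1 above both day 30 libraries in 15 genes and replicate 2 in 9. SREBF1, a regulator of lipid synthesis, was at 246 and 229 CPM at day 30 and 107 and 51.3 CPM at day 35 (log2 fold change -1.49 ± 0.27 SE, adjusted p = 0.017), the 1 called of 18 cholesterol and fatty acid genes. IGFBP4, an insulin-like growth factor binding protein, was at 54.2 and 80.4 CPM at day 30 and 132 and 162 CPM at day 35 (log2 fold change 1.11 ± 0.22 SE, adjusted p = 0.021). IER3, an immediate early gene, was at 35.4 and 35.9 CPM at day 30 and 94.8 and 121 CPM at day 35 (log2 fold change 1.57 ± 0.34 SE, adjusted p = 0.03), and ME1, malic enzyme, at 20.1 and 16.7 CPM at day 30 and 38 and 86.3 CPM at day 35 (log2 fold change 1.65 ± 0.38 SE, adjusted p = 0.041). NDUFB9, a complex I subunit, was at 77.3 and 83.8 CPM at day 30 and 149 and 178 CPM at day 35 (log2 fold change 1.01 ± 0.20 SE, adjusted p = 0.021). PSMC1, a proteasome ATPase, was at 104 and 145 CPM at day 30 and 194 and 334 CPM at day 35 (log2 fold change 1.05 ± 0.25 SE, adjusted p = 0.044). The 26 proteasome genes had a median of 0.58. In 18 both day 35 libraries lay above both day 30 libraries, beside 16.0% of all genes.

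All 9 of these calls were lost without day 30 replicate 1: the adjusted p was 0.13 for HSPA5, 0.054 for HSP70.2, 0.13 for ALDH1L2, 0.074 for SREBF1, 0.15 for IGFBP4, 0.15 for IER3, 0.13 for ME1, 0.13 for NDUFB9 and 0.24 for PSMC1. Without day 30 replicate 2 only HSP70.2 and IGFBP4 of the 9 were called (adjusted p of the others from 0.065 to 0.19). ME1 and PSMC1 were also lost without day 35 replicate 2 (adjusted p = 0.051 and 0.059), and ALDH1L2 without day 35 replicate 1 (0.076).

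Several programmes moved in opposite directions in the 2 day 35 libraries, and their tests between days gave few calls or none. Over all genes, day 35 replicate 1 was above both day 30 libraries in 3890 genes (39.2%) and below both in 3984 (40.2%). Replicate 2 was above both in 3718 (37.5%) and below both in 4949 (49.9%). In 1875 genes (18.9%) replicate 1 was above and replicate 2 below, and in 1450 (14.6%) the reverse. What follows describes the 2 libraries and not the days.

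Hypoxia and glycolysis genes were high in replicate 1 and low in replicate 2. Of 27, replicate 1 was above both day 30 libraries in 23 and replicate 2 below both in 26, with no call (median 0.04). BNIP3, a hypoxia-induced mitophagy receptor, was at 2312 and 2621 CPM at day 30 and 6121 and 72.8 CPM at day 35. LDHA, lactate dehydrogenase A, was at 2693 and 3072 CPM at day 30 and 4789.7 and 637 CPM at day 35. PKM, pyruvate kinase, was at 7027 and 7628 CPM at day 30 and 9589.7 and 3852 CPM at day 35, and GAPDH at 9831 and 9101 CPM at day 30 and 7823 and 3647 CPM at day 35. The summed level of the list was 34319 and 37950.3 CPM at day 30 and 50576 and 12015 CPM at day 35, against 6709 to 9269 CPM in day 35 normal clones.

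Epithelial genes parted the same way. Replicate 1 was above both day 30 libraries in 11 of 15 and replicate 2 below both in 13. The summed level was 5247 and 3984 CPM at day 30 and 9737 and 801 CPM at day 35. Normal clones had 621 to 708 CPM at day 30 and 738 to 1417 CPM at day 35. NF fetuses had 501 to 618.5 CPM and 416 to 757 CPM. Replicate 2 was thus near the other fetus groups in this sum, and the other abnormal libraries were the high ones. KRT8, a keratin of simple epithelium, was at 2202 and 1679 CPM at day 30 and 4542 and 186 CPM at day 35, and CDH1, E-cadherin, at 298 and 186 CPM at day 30 and 696 and 13.5 CPM at day 35. CLDN6, a claudin of embryonic epithelium, went the other way, at 84.8 and 77 CPM at day 30 and 111 and 361 CPM at day 35. All 12 anterior HOX genes were below both day 30 libraries in replicate 2, with HOXA5, the highest in replicate 1, at 132 and 143 CPM at day 30 and 170.0 and 18.9 CPM at day 35.

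Cell cycle genes showed the reverse. All 19 were below both day 30 libraries in replicate 1, and 15 were above both in replicate 2, with no call between days. TOP2A, the topoisomerase of dividing cells, was at 591 and 429 CPM at day 30 and 62.5 and 556 CPM at day 35. CCNB1, a mitotic cyclin, was at 72.1 and 51.3 CPM at day 30 and 10.4 and 283 CPM at day 35, and MCM2, a subunit of the replicative helicase, at 426 and 341 CPM at day 30 and 114 and 348 CPM at day 35.

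Contractile and wound-type fibroblast genes were high in replicate 2, above both day 30 libraries in all 18 tested. Their summed level was 3622 and 2661 CPM at day 30, 3521 CPM in day 35 replicate 1 and 36317 CPM in replicate 2, against 2903 to 3418 CPM in normal clones and 11557 to 19536 CPM in NF fetuses of day 35. TAGLN, an actin-binding protein of smooth muscle and myofibroblasts, was at 455 and 304 CPM at day 30 and 738 and 4249 CPM at day 35 (log2 fold change 2.71 ± 0.66 SE, adjusted p = 0.049), and MYL9, a myosin light chain, at 65.1 and 49.2 CPM at day 30 and 164 and 521 CPM at day 35 (log2 fold change 2.54 ± 0.61 SE, adjusted p = 0.047). These were the 2 called. Both calls were lost without day 35 replicate 2 (adjusted p = 0.18 and 0.11), day 30 replicate 1 (0.17 and 0.17) and day 30 replicate 2 (0.24 and 0.22). ACTA2, smooth muscle actin, was at 86.5 and 54.7 CPM at day 30 and 26.5 and 3450.2 CPM at day 35, a wide gap between the 2 day 35 libraries. The chemokine CCL2 was at 3.06 and 0 CPM at day 30 and 1.92 and 405 CPM at day 35, and S100A4, a fibroblast calcium-binding protein, at 0 and 0.855 CPM at day 30 and 0.767 and 202 CPM at day 35. CAV1, the caveola coat protein, was at 57.7 and 73.1 CPM at day 30 and 12.3 and 987 CPM at day 35, and the proteoglycan CSPG4 at 26.2 and 29.1 CPM at day 30 and 9.21 and 745 CPM at day 35. PIMREG, a mitotic protein, was at 0 and 23.5 CPM at day 30 and 0 and 124 CPM at day 35.

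The genes furthest in favour of replicate 1, after HBE1 and HBZ, were of mixed kinds. SLC17A7, a vesicular glutamate transporter, was at 141 and 171 CPM at day 30 and 375 and 0 CPM at day 35, and C3, the central complement protein, at 280.0 and 227 CPM at day 30 and 809.5 and 5.4 CPM at day 35. CDCP1, an epithelial surface protein, was at 54.6 and 38.1 CPM at day 30 and 191 and 0 CPM at day 35, and TRIM29, of stratified epithelium, at 163 and 65.9 CPM at day 30 and 413 and 2.7 CPM at day 35. AZIN1 was at 226 and 171 CPM at day 30 and 173 and 0 CPM at day 35 and PRR14L at 132 and 106 CPM at day 30 and 165 and 0 CPM at day 35, so that these 2 were near their day 30 level in replicate 1 and without a count in replicate 2.

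Paternally expressed imprinted genes were low in replicate 1. Of 14, replicate 1 was below both day 30 libraries in 13 and replicate 2 in 10, and 1 fell. PEG10, a retrotransposon-derived gene needed in placenta, was at 994 and 548 CPM at day 30 and 5.37 and 828 CPM at day 35. NDN, necdin, was the called gene, at 111 and 47.5 CPM at day 30 and 2.69 and 27 CPM at day 35 (log2 fold change -3.36 ± 0.79 SE, adjusted p = 0.043). SNRPN was at 109 and 50.5 CPM at day 30 and 0 and 43.2 CPM at day 35, NNAT at 653 and 119 CPM at day 30 and 6.91 and 54 CPM at day 35 and MEST at 84.3 and 49.2 CPM at day 30 and 7.67 and 105 CPM at day 35, none of them called. IMPACT alone was above both day 30 libraries in both day 35 libraries, at 84.8 and 88.1 CPM at day 30 and 127 and 94.4 CPM at day 35. IGF2, the fetal growth factor, was at 361 and 286 CPM at day 30 and 231 and 251 CPM at day 35. The call of NDN was lost without day 30 replicate 1 (adjusted p = 0.17), day 30 replicate 2 (0.052) and day 35 replicate 1 (0.13). Of 11 maternally expressed genes none was called, with GNAS at 3561 and 4058 CPM at day 30 and 4963 and 2209 CPM at day 35 and NAP1L4 at 452 and 379 CPM at day 30 and 269.7 and 604 CPM at day 35.

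**Figure D4:**
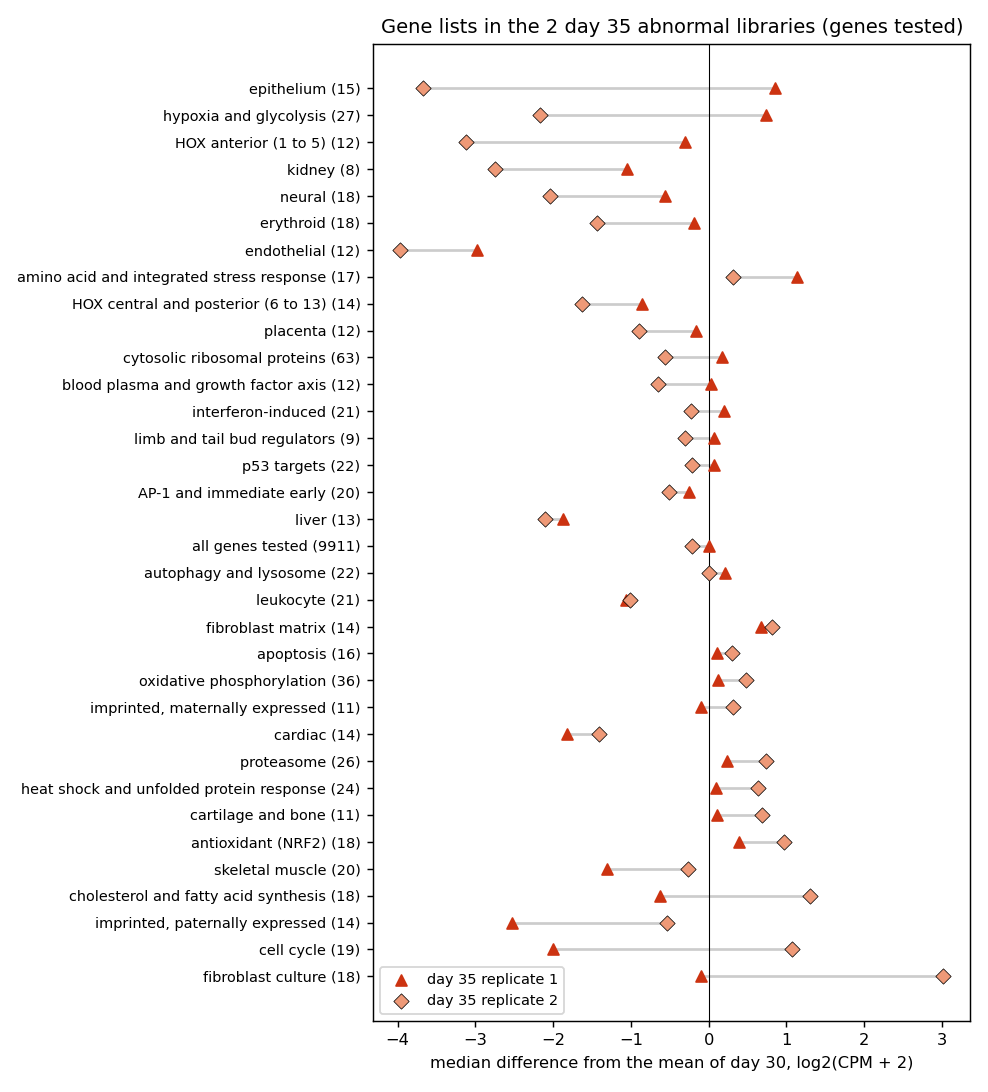
Median difference from the mean of the 2 day 30 abnormal libraries in day 35 replicate 1 (triangles) and replicate 2 (diamonds) for each gene list, as log2(CPM + 2), with the number of genes tested in brackets. Endothelial and cardiac genes lie left of 0 in both libraries, as do other lists such as leukocyte, liver, kidney and neural genes. Hypoxia, epithelium and cell cycle genes lie on opposite sides. The median of all genes was 0 in replicate 1 and -0.21 in replicate 2.

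The remaining lists gave no call. These were cartilage and bone (11 genes, median 0.54, with COL11A1 at 867 and 1023 CPM at day 30 and 1441 and 712 CPM at day 35), placenta (12 genes, median 0.02), p53 targets (22, median -0.11), apoptosis (16, median 0.37), autophagy and lysosome (22, median 0.18) and interferon-induced genes (21, median 0.07). For 63 genes of cytosolic ribosomal proteins the median was -0.13, and replicate 1 lay above both day 30 libraries in 47 of them, replicate 2 below both in 59. The AP-1 and immediate early list (20 genes, median -0.25), the antioxidant list (18, median 0.39), oxidative phosphorylation (36, median 0.31) and the plasma and growth factor list (12, median -0.16) each had only the call named above.

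The same 5 days in normal clones gave changes that overlapped in part. There 911 genes were called (9.19%), 530 higher (5.35%) and 381 lower (3.84%); limma on log2(TPM + 1) gave 335 higher and 363 lower. With 1 normal clone library left out, the 911 became 1 to 508. Of the 348 genes called in abnormal clones 64 were also called in normal clones. That is 18.4% of the first list, beside 9.19% of all genes, and 7.03% of the second, beside 3.51% of all genes. In 34 of the 64 the direction was the same, and in 30 it was opposite. The day change itself differed between abnormal and normal clones in 401 genes (4.05%), more positive in abnormal clones in 130 (1.31%) and more negative in 271 (2.73%). Leaving out 1 library moved this count to between 114 and 2856.

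Endothelial genes were among those that differed: 5 of 12 had a more negative day change in abnormal clones. In normal clones VWF was at 62.2 ± 2.83 CPM at day 30 and 81.4 ± 4.87 CPM at day 35 (SD, n = 3; difference of day changes -5.71 ± 0.34 SE on the log2 scale, adjusted p = 2.9e-05). Leukocyte genes gave 9 of 21, with a normal-clone median of 1.61 beside -1.56 in abnormal clones. C1QC rose in normal clones from 8.64 ± 1.64 CPM to 28.2 ± 8.07 CPM (adjusted p = 0.014), and the day changes differed by -4.23 ± 0.55 SE (adjusted p = 0.0044). Skeletal muscle gave 4 of 20, among them ACTA1, which rose in normal clones from 37.6 ± 15.7 CPM to 280.1 ± 150.3 CPM (adjusted p = 0.0092; difference -6.85 ± 0.92 SE, adjusted p = 0.0046). Cardiac genes gave 4 of 14, with MYH7 at a difference of -6.89 ± 1.02 SE (adjusted p = 0.0073). PAX2 rose in normal clones from 17.9 ± 4.02 CPM to 59.5 ± 9.35 CPM (adjusted p = 0.034) and HNF4A from 0.682 ± 0.368 CPM to 18.1 ± 6.65 CPM (adjusted p = 0.0063), while both were undetected in the day 35 abnormal clones. NF fetuses were low in some of these genes at both days. At day 30 and day 35, NF means were 1.01 ± 0.0792 and 1.39 ± 1.24 CPM for PAX2 (SD, n = 2). For MYH7 they were 1.54 ± 1.1 and 0.952 ± 0.137 CPM, and for VWF 11.7 ± 3.16 and 6.82 ± 0.753 CPM. The summed endothelial list was not low in NF fetuses, at 894 to 1648 CPM at day 30 and 1700 to 1915 CPM at day 35.

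Some rises were shared. ASPN rose in normal clones from 27.9 ± 19.2 CPM to 308 ± 38.2 CPM (adjusted p = 0.0066), and its day changes were not shown to differ (difference 1.21 ± 0.79 SE, adjusted p = 0.4). NFIX rose from 61.2 ± 6.66 CPM to 171 ± 34.4 CPM in normal clones (adjusted p = 0.0063), but by less than in abnormal clones, where the difference of the day changes was 2.29 ± 0.34 SE (adjusted p = 0.0073). TNMD went from 22.1 ± 3.77 CPM to 103 ± 19.7 CPM in normal clones (adjusted p = 0.0059; difference 2.56 ± 0.58 SE, adjusted p = 0.036). SIX2, RER1 and ABCB1 were not called in normal clones (adjusted p = 0.47, 0.34 and 0.47) and differed by 3.60 ± 0.44, 3.18 ± 0.43 and 5.10 ± 0.90 SE (adjusted p = 0.0034, 0.0046 and 0.014). SIX2 was at 142 ± 14.9 CPM in day 30 normal clones, so the day 30 abnormal libraries, at 16.6 and 12.8 CPM, were the low ones.

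**Figure D5:**
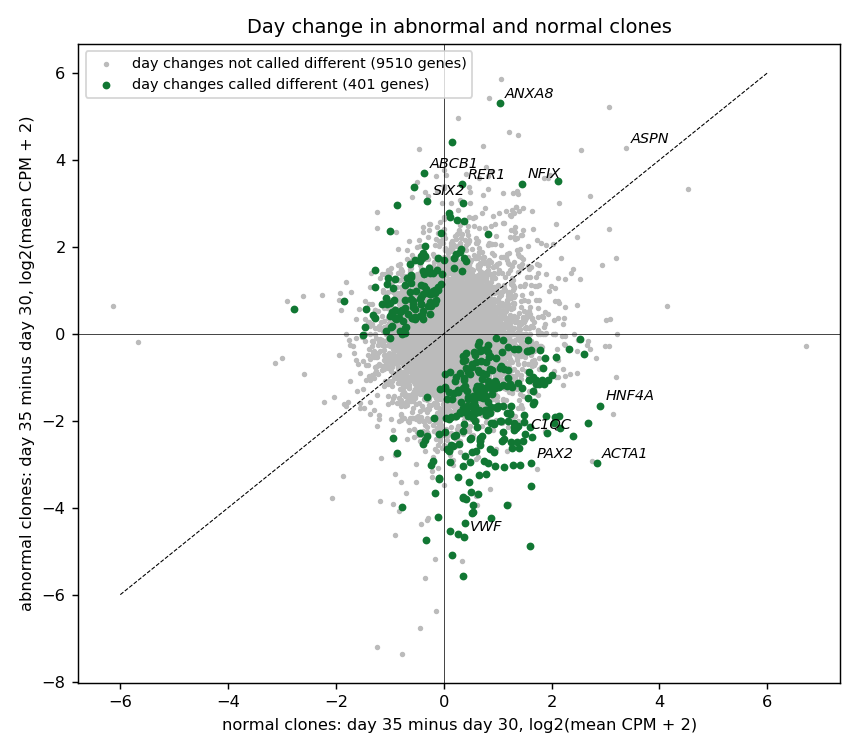
Day 35 minus day 30 in normal clones (x axis) and abnormal clones (y axis) for each of the 9911 genes, as log2(mean CPM + 2); the dashed line marks equal changes, and green points are the 401 genes whose day changes were called different. VWF, PAX2, HNF4A, C1QC and ACTA1 lie right of and below the centre, and RER1, SIX2 and ABCB1 above it.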

How the data were processed

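Fetus libraries were made from total RNA with a NEBNext kit, per the labels' protocols. The authors deposited 1 RSEM table per library, with an expected count and a TPM value per RefSeq transcript record (65927 records), per the file headers; RSEM 1.2.4 and the build Sscrofa11.1 (susScr11) are named in the submitters' processing notes. No source used here gives the aligner or read filters. From these tables, each record was assigned a gene through its RefSeq accession, version dropped: 25305 records (38.4%) fell in 14389 genes, holding 66.0% to 69.0% of the counts. Counts were summed per gene and rounded.

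All 14 fetus libraries in 6 groups were fitted in edgeR 4.0.16 (R 4.3.3): filterByExpr (9911 genes kept), TMM factors from 0.884 to 1.1, quasi-likelihood F-tests and Benjamini-Hochberg adjustment at 0.05. The SE of a log2 fold change is its size over the root of F. On simulated counts the fit recovered 147 of 200 genes changed 4-fold between abnormal clones, with 7 false calls, over 9597 genes. Each unchanged gene was drawn at the same mean in every library, with a common coefficient of variation of 0.29. The simulated day 35 replicates thus did not part as the real ones did (rho 0.789), and the false calls do not measure error in these data. Levels are CPM on TMM-scaled library sizes, and levels differ between genes with transcript length; floors cover counting error only. Gene counts per fetus library ran from 0.406 to 7.65 M (mega-counts).

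The members, the 34 gene lists and the tests were chosen with earlier results of these data known. The named genes passed 0.05 after adjustment, averaged 1 or more in log2 CPM and had no overlap of the 4 abnormal libraries between days, up to 15 per direction by size, symbols only. Each list gave up to 4 called members, or 2 of its highest where none was called; differences of day changes gave up to 5 per direction and differences between the day 35 libraries up to 8. A gene that the last of these rules names is not reported here. Other genes of a list were named after their values were seen. Alternatives were RLE factors, no filter, a filter at 1 CPM in 2 libraries, DESeq2 1.42.0, limma 3.58.1 on log2(TPM + 1), fits of the compared groups alone, a block for the replicate number, matching with version, and each library left out. Figures were drawn with matplotlib 3.10.9.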

Additional observations from a re-analysis of the deposited data

Results flagged for a closer look

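The day change differed between abnormal and normal clones in 401 genes by the test of the difference itself. The 10 named below are the 5 largest in each direction.

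More negative in abnormal clones were GPR20, an orphan receptor (adjusted p = 0.0327), HNF4A (0.00462), SOX7 (0.018), PAX2 (0.0097) and ARHGEF15 (0.0305). All 5 had no count in either day 35 abnormal library. GPR20 was at 18.8 and 22.7 CPM at day 30 and at least 20.6-fold lower, without a call between days in abnormal clones (adjusted p = 0.069), while normal clones were at 0.66 ± 1.14 CPM at day 30 and 6.15 ± 1.06 CPM at day 35 (SD, n = 3). SOX7 was at 19.5 ± 4.23 CPM and 29.2 ± 4.62 CPM in normal clones, and ARHGEF15 at 13.2 ± 9.3 CPM and 18.2 ± 9.11 CPM.

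More positive in abnormal clones were DSG3 (adjusted p = 0.03), WDR12, a ribosome assembly protein (0.0378), FZD9 (0.0387), ABCB1 (0.0142) and ANXA8 (0.0276). WDR12 was at 0 and 0 CPM at day 30 and 16.1 and 0 CPM at day 35 and was 1 of the 2 called genes whose libraries overlapped between days, with an adjusted p of 0.027 that became 1 without day 35 replicate 1, 0.13 without day 30 replicate 1 and 0.13 without day 30 replicate 2. FZD9 was at 23.5 ± 7.14 CPM and 31.8 ± 8.33 CPM in normal clones, above its level in all 4 abnormal libraries. ANXA8 was at 4.11 ± 1.92 CPM and 10.5 ± 1.99 CPM in normal clones.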

How the results depend on the processing

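The count of genes changed between days in abnormal clones (348) was 857 with DESeq2, 768 with limma on log2(TPM + 1), 143 with records matched by version (2964 genes tested), 0 with only the compared groups and 0 with the replicate block fitted on those groups (281 of 8382 genes at an unadjusted p under 0.05 in edgeR), and 87 to 2704 without 1 library. It lay between 304 and 348 under RLE size factors, both other filters and without day 30 NF replicate 1, an alternative added after the data were seen; that last fit gave 133 higher and 215 lower. The count in normal clones (911) was 1588 with DESeq2, 3635 with only the compared groups, 2904 with the replicate block in those groups, 179 with version matching, and 1 to 508 without 1 library. The count of differing day changes (401) was 946 with DESeq2, 694 with limma on log2(TPM + 1), 279 with only the compared groups, 62 with the replicate block in those groups, 115 with version matching, and 114 to 2856 without 1 library. Apart from the genes named for their gap between the day 35 libraries, 7 genes of the text, none called with all libraries, were called with the opposite sign when 1 day 35 abnormal library was left out: the log2 fold change ranged from -3.77 to 2.23 for ACTC1, -5.16 to 1.30 for BNIP3, -2.59 to 2.12 for CCNB1, -4.24 to 1.51 for CDH1, -3.46 to 1.21 for KRT8, -2.25 to 0.72 for LDHA and -0.64 to 0.47 for NAP1L4. Other uncalled genes, such as COL11A1, PKM and TOP2A, changed sign without such a call. WDR12, called with all libraries, ranged from 0 without day 35 replicate 1 to 9.32, and LGALS3, also called, was at 0 with version matching. In the fit of all 14 libraries, added after the data were seen, the replicate block gave 169 genes in abnormal clones, 409 in normal clones and 155 differing day changes. The cause of these shifts was not tested, beyond the fewer genes in version matching and the fewer samples in the smaller fits. With 1 library of a group left out, the lone library is assumed to vary like the other groups. Same-numbered abnormal libraries did not deviate together (r = -0.02 across genes), nor did normal ones (-0.06 to 0.01), so no pairing by number was seen. In the abnormal clones the wide gap between the day 35 libraries could hide a shared deviation, so this cannot exclude a pairing. Depth limits day 35 replicate 2 most, where 3 counts are 8.09 CPM.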

Other observations

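Genes outside the lists that were called in every fit leaving out 1 abnormal library included several known from vessels, neural crest and surface proteins, given here as values. EDNRB, an endothelin receptor of neural crest and endothelium, was at 144 and 118 CPM at day 30 and 11.13 and 5.4 CPM at day 35 (log2 fold change -3.73 ± 0.60 SE, adjusted p = 0.0099). PCDH12, an endothelial protocadherin, was at 49.4 and 96.6 CPM at day 30 and 4.6 and 0 CPM at day 35 (log2 fold change -4.26 ± 0.64 SE, adjusted p = 0.0084). HEYL, a NOTCH target, was at 14 and 22.7 CPM at day 30 and 1.15 and 0 CPM at day 35 (log2 fold change -4.18 ± 0.49 SE, adjusted p = 0.0018). IGDCC3, an immunoglobulin-family membrane protein, was at 398 and 429 CPM at day 30 and 51.4 and 2.7 CPM at day 35 (log2 fold change -3.55 ± 0.55 SE, adjusted p = 0.0087). Normal clones had IGDCC3 at 67.1 ± 14.7 and 28.3 ± 2.67 CPM at day 30 and day 35 (SD, n = 3), so the day 30 abnormal libraries were the high ones. SLA-1, a classical class I histocompatibility gene with close copies that could share its reads, was at 41.9 and 35.9 CPM at day 30 and 4.6 and 0 CPM at day 35 (log2 fold change -3.38 ± 0.54 SE, adjusted p = 0.0099). In the other direction, FIBIN was at 24.5 and 10.7 CPM at day 30 and 115 and 151 CPM at day 35 (log2 fold change 2.89 ± 0.33 SE, adjusted p = 0.0017), TM4SF1, a tetraspanin-like surface protein, at 27.1 and 17.5 CPM at day 30 and 102 and 132 CPM at day 35 (log2 fold change 2.36 ± 0.26 SE, adjusted p = 0.0015), SSPN, of the dystrophin complex, at 18.3 and 21 CPM at day 30 and 76.3 and 64.7 CPM at day 35 (log2 fold change 1.87 ± 0.19 SE, adjusted p = 8.7e-04), and KCTD9 at 35.8 and 38.5 CPM at day 30 and 115 and 89 CPM at day 35 (log2 fold change 1.49 ± 0.20 SE, adjusted p = 0.0049). Like 346 of the 348 called genes, these 9 had no overlap of the libraries between days, and all 9 were named after their values were seen.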
